A study of Caenorhabditis elegans with 2 samples.

Results

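The genes described here encode the CCR4-NOT complex of the nematode Caenorhabditis elegans, and they were examined for peaks of the transcription factor ZFH-2. They are ntl-2, ntl-3, let-711, ntl-9, ccf-1, ccr-4 and ntl-4, found by name in the Ensembl WBcel235 annotation, where all 7 of the listed names were present among 19973 protein-coding genes on the nuclear chromosomes. The set was chosen on the measured strength of the peak in the ntl-2 promoter, so the signals and counts below are descriptions, given without a test. Each gene was read from 1 kb upstream to 1 kb downstream.

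CCR4-NOT shortens the poly(A) tails of messenger RNAs in the cytoplasm, a step that silences an mRNA and exposes it to decay. A large scaffold protein holds a pair of nucleases and a module of NOT proteins together, and RNA-binding proteins and the microRNA machinery bring the complex to chosen transcripts. In C. elegans the complex is known for its roles in the germline and the early embryo. ZFH-2 is a zinc finger homeodomain protein, and chromatin immunoprecipitation sequencing (ChIP-seq) records where on the DNA it, or a complex that holds it, was found.

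Chromatin came from whole young adults of strain RW12167, 64.5 hours old by the labels, grown from synchronised, starved first-stage larvae. The endogenous zfh-2 gene carried GFP, inserted by CRISPR together with an unc-119(+) marker and loxP sites, in an unc-119(tm4063) background, and an antibody against GFP was used for the precipitation. There was 1 group of 2 biological replicates, both with this genotype, so no comparison between conditions was possible. Signal from whole animals does not show in which cells a peak arises, and no library without the tag was analysed here.

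For both replicates combined, the authors' conservative list held 7085 nuclear peaks after 2 mitochondrial ones were left out. Replicate 1 had 4281 nuclear peaks in its own thresholded list and 33033 in its longer ranked list. Replicate 2 had 4696 and 32103. A summit is the point that the authors list within a peak, and an interval can hold more than 1. Signal is the authors' value per peak, of unstated scaling, and is read here as a rank within 1 list. The lists hold no read counts, so the depth is unknown.

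The sequences under the summits that the results turn on are printed first. Each was read on the strand of its gene, 5′ to 3′, from the RefSeq WBcel235 genome, which has the coordinates of the authors' build ce11. The first sequence is the ntl-2 promoter summit, shown with 100 bp on either side because its signal led to the choice of this gene set. The others span 50 bp on either side and were picked as the strongest summits of ntl-3, ntl-9 and let-711, or as the summits that held 1 of the 5 short motifs searched. Where a line names a motif the capitals mark it, and in the other lines they mark the 21 bases centred on the summit.
ntl-2 promoter summit, chrII:4376833-4377033, minus strand: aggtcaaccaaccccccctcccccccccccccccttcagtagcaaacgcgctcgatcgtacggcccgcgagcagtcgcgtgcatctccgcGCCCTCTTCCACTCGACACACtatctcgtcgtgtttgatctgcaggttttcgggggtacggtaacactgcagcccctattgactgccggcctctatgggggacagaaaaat
ntl-2 last exon, chrII:4373006-4373106, minus strand, CAGCTG: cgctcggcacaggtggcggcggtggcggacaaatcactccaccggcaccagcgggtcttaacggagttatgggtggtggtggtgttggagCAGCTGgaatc
ntl-3 exon 6, chrIII:11833562-11833662, minus strand: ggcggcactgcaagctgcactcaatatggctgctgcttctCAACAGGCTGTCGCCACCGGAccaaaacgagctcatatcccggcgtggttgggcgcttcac
ntl-3 intron 5, chrIII:11836246-11836346, minus strand, TGACGTCA: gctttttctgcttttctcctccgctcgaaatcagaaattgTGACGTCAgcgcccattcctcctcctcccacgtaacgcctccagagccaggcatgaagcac
ntl-9 downstream, chrIII:4947441-4947541, plus strand: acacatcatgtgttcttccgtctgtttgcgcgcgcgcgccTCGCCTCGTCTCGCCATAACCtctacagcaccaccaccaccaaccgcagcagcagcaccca
ccf-1 exon 3, chrIII:11919376-11919476, minus strand, CAGCTG: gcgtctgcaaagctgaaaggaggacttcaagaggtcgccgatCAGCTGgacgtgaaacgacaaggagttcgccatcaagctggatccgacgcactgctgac
ntl-4 upstream, chrIV:7909616-7909716, plus strand, overlapping matches to GAGAGAGA on the other strand: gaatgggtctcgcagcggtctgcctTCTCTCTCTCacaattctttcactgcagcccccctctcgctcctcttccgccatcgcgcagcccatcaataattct
let-711 exon 14, chrIII:6953555-6953655, plus strand: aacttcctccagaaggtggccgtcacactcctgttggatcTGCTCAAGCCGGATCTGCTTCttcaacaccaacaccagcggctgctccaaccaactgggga

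All 7 genes had at least 1 summit in the conservative list, 16 in total. Of all protein-coding genes, 22.9% had a summit in the same kind of window. The members' windows had a median length of 6615 bp, against 4027 bp over all genes, and windows above 4 kb held summits more often the longer they were. Among genes whose window length lay within the members' range, 3410 to 17454 bp, the share was 24.7%. That range mixes short and long windows, so this share is not matched to the members' lengths. By length class it was 16.2% in that of ccf-1, 18.7% for ntl-9 and 25.6% for ntl-2 and ntl-4. It was 49.95% for let-711 and ccr-4, and 57.2% for ntl-3. At least 2 summits were found at 5 of the 7 members, namely ntl-2, ntl-3, let-711, ntl-9 and ccr-4, and at 9.16% of all protein-coding genes. The 2 summits of ntl-9 lie in 1 shared interval, and both figures count summits, not separate intervals. The 9.16% was not adjusted for window length. Since the set was chosen with these peaks known, the counts describe the members and no more.

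**Figure D1:**
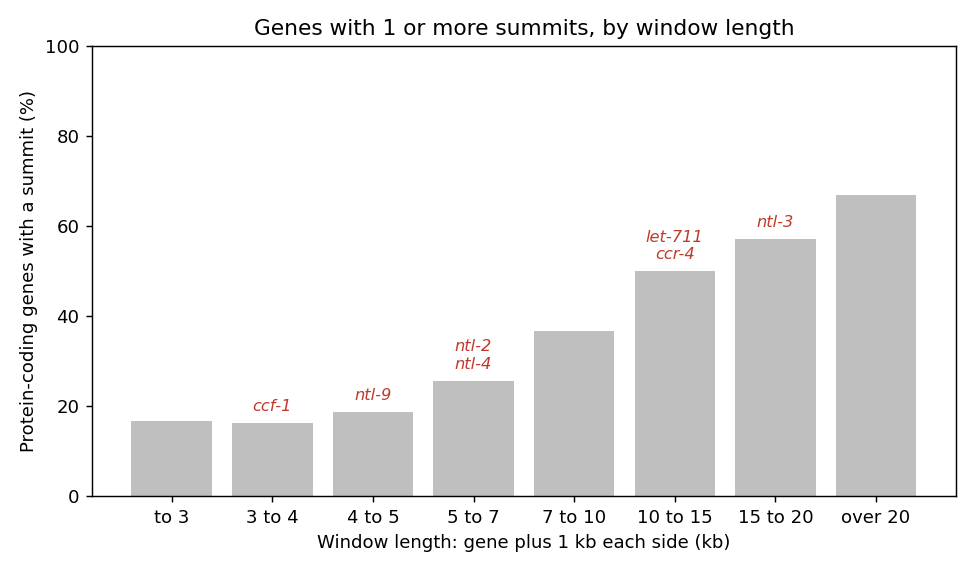
Share of protein-coding genes with 1 or more summits of the conservative list, in percent (bars), by the length of the window in kb, with each member named above the bar of its own length class. The share is 16.8% up to 3 kb, 16.2% in the class of ccf-1, 57.2% in that of ntl-3 and 66.9% above 20 kb.

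The 16 summits were spread over very different places. Relative to the member genes, 7 lay in coding exons, 4 in introns, 2 upstream and 3 downstream. In the promoter window, taken as 1000 bp upstream to 200 bp downstream of the gene's 5′ end, only ntl-2 and ntl-4 of the 7 members had a summit in the conservative list, against 8.82% of all protein-coding genes. The outermost summit inside the windows lay 909 bp upstream of ntl-4. The nearest summits outside them lay 1040 bp downstream of ntl-3 (signal 197) and 1193 bp upstream of let-711 (signal 176).

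**Figure D2:**
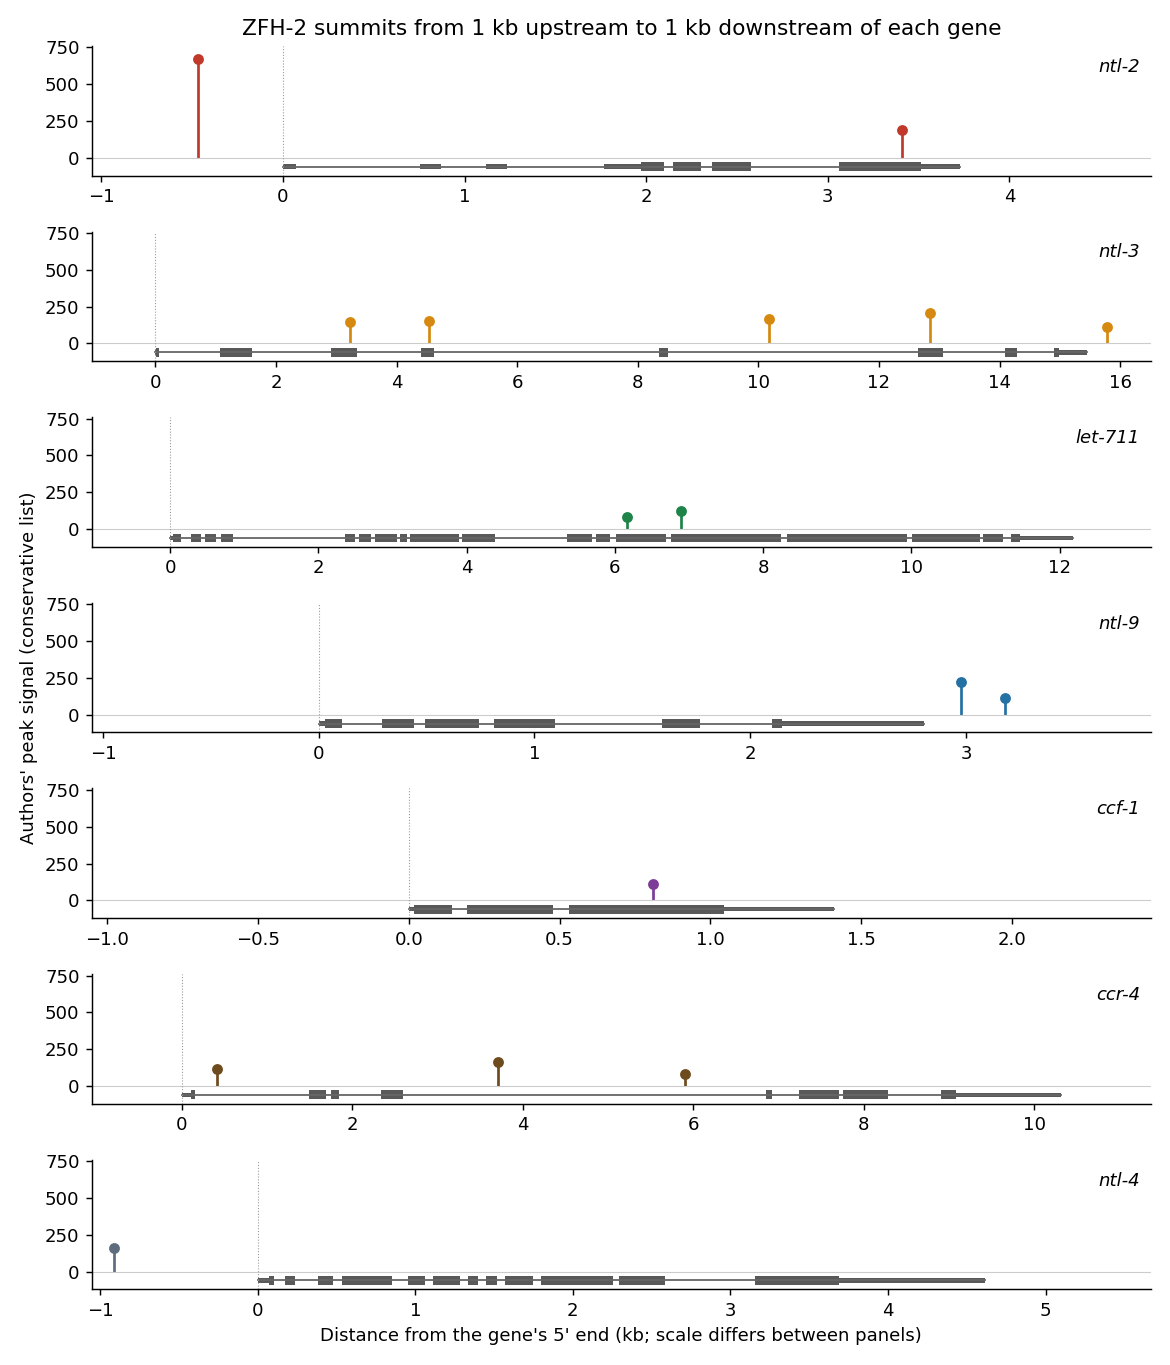
Summits of the conservative list at each member, as distance from the gene's 5′ end in kb (horizontal axis, scaled separately in each panel) against the authors' peak signal (vertical axis). Each stem with a dot is 1 summit, thick grey boxes are coding exons and thin boxes are untranslated exons of the transcript with the longest span. The ntl-2 promoter summit reaches 673, while all other summits lie at or below 223.

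ntl-2 (WBGene00003825) encodes the NOT2 subunit, which pairs with NOT3 in the NOT module. The gene lies on chromosome II from 4372739 to 4376465, on the minus strand. It has 12 annotated transcripts. Its 5′ end is the start of B0286.4c.3, while B0286.4d.1 starts inside the gene. Its strongest summit, at 4376933 in a peak from 4376579 to 4377203, lay 468 bp upstream of the 5′ end, and the window of no other protein-coding gene's promoter held it. The signal was 673.3 in the conservative list, rank 14 of 7085. It was 376 in replicate 1, rank 10 of its own list, and 304.6 in replicate 2, rank 16. The peak was thus among the strongest of both replicates, with own summits 12 bp and 27 bp from the pooled one. In replicate 1 the interval overlapped 2 thresholded peaks, in replicate 2 it overlapped 1.

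Ranked by the strongest summit in the promoter window, ntl-2 was at position 9 of 1761 protein-coding genes with such a summit. The genes next above it were hsp-3, a gene for a BiP-type chaperone of the endoplasmic reticulum, with a signal of 688.4, and the phosphodiesterase gene pde-6, with 692.9. Those next below were swsn-7, a gene of the SWI/SNF remodelling complex, with 670.5, and bet-2, which encodes a bromodomain protein, with 665.9. These are neighbours in a single list and the signal has no error, so their order is a description.

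The second ntl-2 summit lay in the last coding exon, exon 7 of 7, at 4373056. Its signal was 192.5, rank 1317. It was also 531 bp upstream of the next gene on the same strand, paic-1, and so inside the promoter window of that gene. The replicates placed it differently, at rank 2618 of 4281 in replicate 1 (signal 77.6) and rank 726 of 4696 in replicate 2 (signal 114.3).

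ntl-3 (WBGene00003826) encodes NOT3, the partner of NOT2. The gene spans chromosome III from 11831012 to 11846465 on the minus strand, the longest of the set, and held 5 summits. Their signals ran between 113.6 and 205.1, and none lay in the promoter window. Summits in exon 3, exon 4 and exon 6 had signals of 145.1, 153.5 and 205.1. A summit in intron 5 had a signal of 167.0. The remaining one lay 334 bp beyond the 3′ end, in a coding exon of rsp-8, which encodes an SR-type splicing protein.

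All 5 ntl-3 peaks were found in the thresholded list of each replicate, whereas none of the 3 at ccr-4 was found in both. The exon 6 summit ranked highest among them in both replicates, with a signal of 103.5 in replicate 1 (rank 1372) and 107.6 in replicate 2 (rank 879). It lay 85 bp downstream of the start of a shorter annotated transcript, Y56A3A.1b.1. The exon 3 and exon 4 summits had closely similar places in both lists, at ranks 2495 and 2549 in replicate 1 and ranks 2498 and 2460 in replicate 2.

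let-711 (WBGene00002845) encodes NOT1, the scaffold on which the other subunits assemble, and in worm embryos it is also known for its part in positioning the mitotic spindle. It lies on chromosome III from 6946718 to 6958894 on the plus strand. Both of its summits were in coding exons, 6171 bp and 6887 bp from the 5′ end, with signals close to the list median and below it. The summit in exon 14 had a signal of 120.7, rank 3459, and the one in exon 13 had 82.2, rank 6049. The exon 14 peak was in the own thresholded list of replicate 1 (signal 72.1, rank 2994) and not in that of replicate 2, where the ranked list gave a signal of 46.7 with a score of 764. The exon 13 peak was in neither thresholded list.

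ntl-9 (WBGene00016139) encodes the worm CNOT9 subunit, which in other animals is a docking surface for proteins that recruit the complex. The gene lies on chromosome III from 4944513 to 4947317 on the plus strand. Its summits lay beyond its 3′ end, at 174 bp and 377 bp, in a shared peak from 4947305 to 4947798. That peak also overlaps the annotated non-coding RNA gene C26E6.15, but neither summit lay inside that gene. The nearer summit had the highest signal among members after the ntl-2 promoter, 222.9, rank 887. In the own lists it had a signal of 101.1 in replicate 1 (rank 1448) and 121.5 in replicate 2 (rank 601). The farther summit had 112.7. Replicate 2 listed a summit there (signal 49.2, rank 4095), while in replicate 1 the thresholded summit of the peak was 185 bp away and the ranked list had one of signal 39.6 with a score of 438. No 5′ end of a protein-coding gene was closer to either summit than that of ntl-9 itself, 2978 bp away from the nearer one.

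ccf-1 (WBGene00000369) encodes the CAF1-type nuclease, the main deadenylase of C. elegans. It is the shortest member, on chromosome III from 11918828 to 11920237 on the minus strand. Its single summit was in exon 3 of 3, 811 bp from the 5′ end and 598 bp before the 3′ end, and 707 bp upstream of the next gene, znf-593, whose promoter window held it. The signal was 113.9, rank 3817. Replicate 2 had it in its own thresholded list (signal 53.3, rank 3780), and replicate 1 only in its ranked list (signal 62.9, score 686). In the ranked lists the peak stood at nearly the same place, with 12.6% of replicate 1 peaks and 12.4% of replicate 2 peaks stronger.

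ccr-4 (WBGene00000376) encodes the other nuclease, of the CCR4 type. It lies on chromosome IV from 12361542 to 12371852 on the plus strand and has 6 annotated transcripts, several of which start inside the gene. All 3 summits lay in introns of the longest transcript. A look at the transcript starts, made after the values were seen, placed the strongest summit, at 12365246, 28 bp upstream of the start of transcript ZC518.3d.1. Its peak also overlaps the annotated non-coding RNA gene ZC518.6, but the summit lay outside that gene. The summit at 12361950 was 2 bp upstream of the start of ZC518.3a.1, and 42 bp upstream of the small gene ZC518.8 on the other strand. The summit at 12367447 lay 983 bp upstream of ZC518.3e.1. Their signals were 160.4, 116.2 and 80.5, and their 2 strongest windows overlap annotated untranslated exons, so those sequences are not printed.

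The replicates differed most at ccr-4. The summit near ZC518.3d.1 had a signal of 120.6 in replicate 1, rank 945 of its own thresholded list and rank 950 of its ranked list. In replicate 2 this summit had a signal of 39.0, at rank 6339 of the ranked list with a score of 170. Its score in the conservative list was 880, below the 1000 of most member peaks. The summit near ZC518.3a.1 was in the thresholded list of replicate 1 alone (signal 70.8, rank 3092). In replicate 2 it had a signal of 43.4 and a score of 727 in the ranked list. No ccr-4 peak was thresholded in replicate 2.

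ntl-4 (WBGene00003827) encodes a homologue of NOT4, a ubiquitin ligase that in yeast is a subunit of the complex. It lies on chromosome IV from 7910575 to 7915189 on the plus strand. Its single summit was 909 bp upstream of the 5′ end, inside an intron of the divergent gene npp-27, a nuclear pore gene, and 581 bp downstream of that gene's own 5′ end. The signal was 157.7, rank 2073. It was in the thresholded list of replicate 1 (signal 93.3, rank 1758) and not in that of replicate 2, whose ranked list gave a signal of 61.6 and a score of 818. The lowest score in the thresholded lists was 830.

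**Figure D3:**
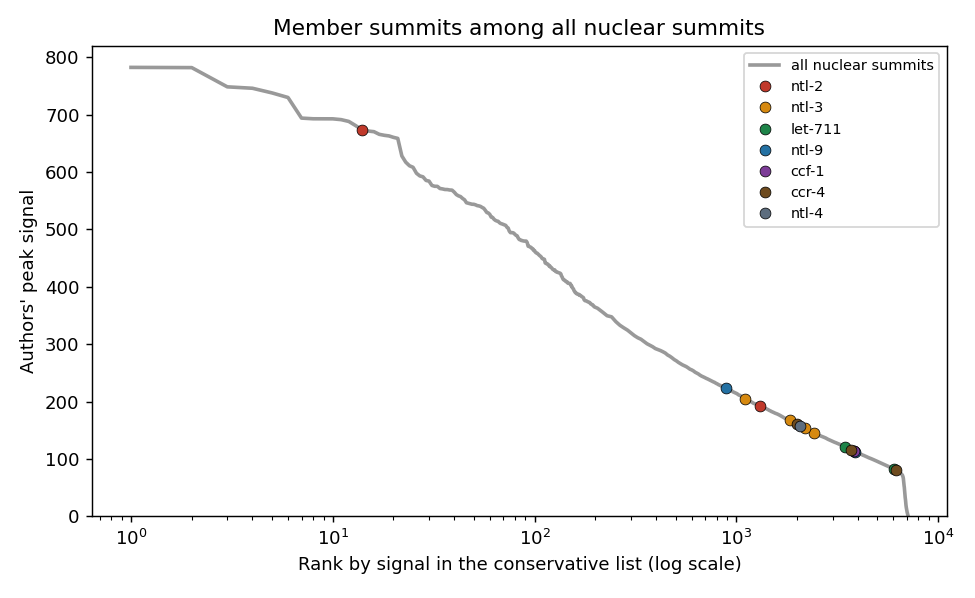
Signal of the 16 member summits (coloured dots, by gene) on the curve of all 7085 nuclear summits of the conservative list (grey line), against rank on a log scale. The ntl-2 promoter summit stands at rank 14, and the other 15 lie between rank 887 and rank 6168.

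Among themselves, the members' signals fell into a single high value and a broad lower group. The ntl-2 promoter summit was at rank 14 and the next, that of ntl-9, at rank 887. The other 15 summits had signals between 80.5 and 222.9 with a median of 145.1, against a median of 119.4 over all nuclear summits, and 9 of the 15 were above that median. The strongest summit of each gene followed the order ntl-2, ntl-9, ntl-3, ccr-4, ntl-4, let-711 and ccf-1. From ccr-4 to ntl-4, 160.4 and 157.7, and from let-711 to ccf-1, 120.7 and 113.9, the steps were small, and in replicate 2's ranked list the summits of ntl-4 and ccf-1 stood above all 3 of ccr-4.

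Each of the 16 member summits was taken with its interval, and the pair at ntl-9 shares 1 interval, which was therefore counted 2 times. Of these 16 entries, 9 overlapped a peak in both own thresholded lists by at least 1 bp, 4 in replicate 1 alone, 1 in replicate 2 alone and 2 in neither. Entries that share an interval were counted in the same way over the whole list. Over all nuclear entries of the conservative list 48.3% overlapped both. The share among the members, 56.2%, is near that background. With own summits within 100 bp required, it was 8 of 16, against 41.7% of all, and the farther ntl-9 summit had no thresholded replicate 1 summit that close. In replicate 1's own list 6 of the 7 members had a summit, all but ccf-1, against 16.6% of all protein-coding genes. In replicate 2's own list 4 had one, namely ntl-2, ntl-3, ntl-9 and ccf-1, against 17.5% of all genes. Every member peak overlapped a peak in both ranked lists, as 99.6% of all nuclear peaks of the conservative list did, and the matched summits lay a median of 22 bp from the pooled ones. The conservative list was made from both replicates, so these overlaps are no independent test of its peaks.

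**Figure D4:**
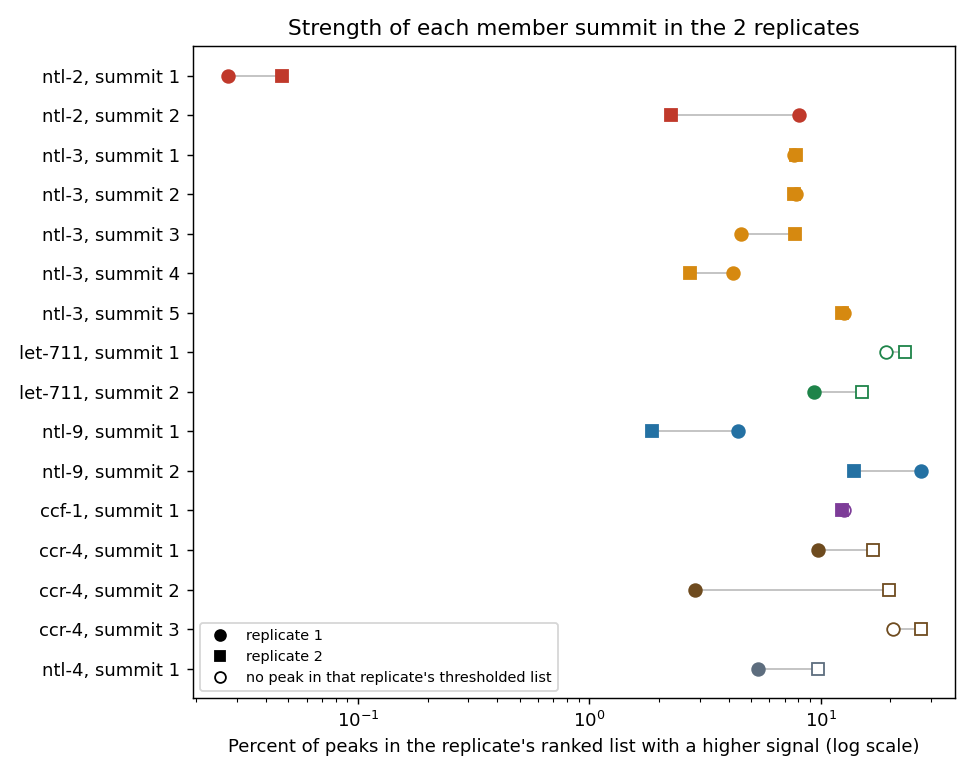
Place of each of the 16 member summits in the 2 replicates' ranked lists, as the percent of that list's peaks with a higher signal (log scale, stronger to the left). Circles are replicate 1 and squares replicate 2, and open symbols mark summits whose peak overlaps none in that replicate's thresholded list. The ntl-2 promoter summit has 0.0272% and 0.0467% of peaks above it, and the widest gap is at summit 2 of ccr-4, with 2.87% and 19.7%.

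The ranked lists, which reach below the threshold, also placed more summits at these genes. Replicate 1 had 52 and replicate 2 had 48 in the 7 windows, 8.06 and 7.44 summits per 10 kb. Over the windows of all protein-coding genes the values were 3.55 and 3.47 per 10 kb. In the conservative list the members had 2.48 and all genes 0.766 per 10 kb. These densities come from the genes chosen for a peak and were not tested.

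Because several members have internal transcript starts, the promoter window was also laid on every annotated transcript, a choice made after the values were seen. With it 4 of the 7 members had a summit in a promoter window, ntl-2, ntl-4, ntl-3 and ccr-4, against 10.6% of all protein-coding genes. A gene with more annotated transcripts can have more such windows. The members had between 1 transcript (ntl-9 and ccf-1) and 12 (ntl-2), and the 10.6% was not matched for transcript number.

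Member summits were rich in G and C. Within 50 bp of the summit the mean GC content was 57.4% ± 4.26 (SD over 16 summits), and 37.9% ± 7.35 in windows centred 300 bp to either side. Over all 7085 summits the values were 55.1% ± 7.0 and 39.6% ± 7.79, and the nuclear genome had 35.4%. GC content exceeded that of the flanks at all 16 member summits, as it did at 93.6% of all summits, so the members' share is near that of all ZFH-2 summits. Values ran between 47.5% at exon 13 of let-711, whose excess over its flanks was the smallest at 3.47 percentage points, and 63.4% at the last exon of ntl-2. At the ntl-2 promoter summit the value was 61.4%, against 40.6% in its flanks.

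**Figure D5:**
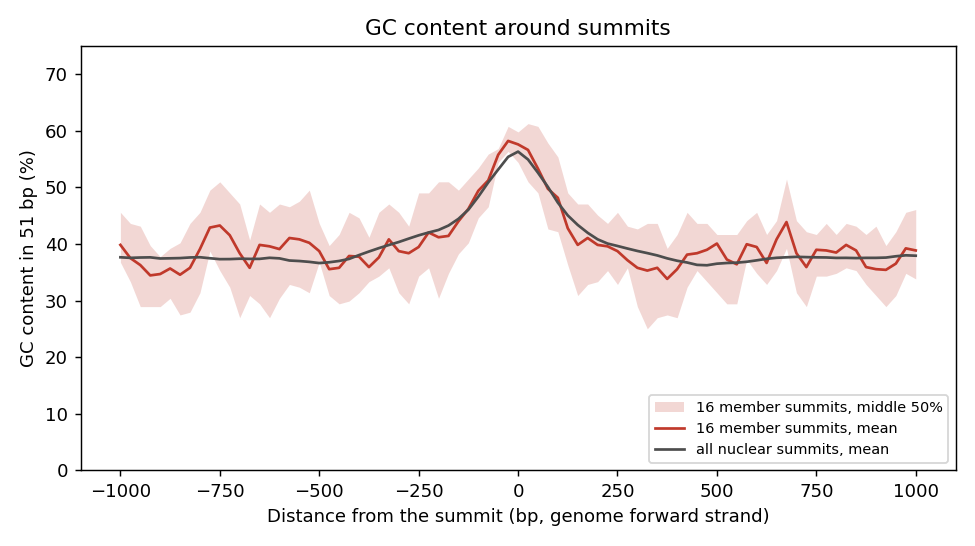
GC content in 51 bp windows, in percent, by distance from the summit in bp. The red line is the mean of the 16 member summits, the red band holds the middle 50% of them, and the dark line is the mean of all 7085 nuclear summits. Both lines are high around the summit, at 57.6% for members and 56.3% for all summits at distance 0.

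The printed ntl-2 promoter sequence has an uninterrupted run of 15 C near its 5′ end. Runs of C or G at least this long were present within 100 bp of 147 of the 7085 summits, and the next longest among the members was 6, at ntl-4. This feature was picked after the sequence was seen. The 5 motifs were searched on both strands within 50 bp of the summits. CAGCTG, an E-box, was in the windows of the ntl-2 last exon and of ccf-1, 2 of 16, and in 6.20% of all summit windows. GAGAGAGA was found at ntl-4 alone of the 16, and in 4.02% of all windows. TGACGTCA was found in intron 5 of ntl-3 alone of the 16, and in 0.762% of all windows. CACGTG (3.81% of all windows) and TAATTA (0.692%) were in no member window. The ntl-2 promoter summit matched none of the 5 motifs within 50 bp. Counts of 1 or 2 among 16 windows do not allow a comparison.

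A list of 22 other genes of mRNA decay gives the setting. It holds deadenylases, decapping and decay factors, poly(A)-binding proteins and proteins that recruit the complex, and 12 of the 22 had a summit in the conservative list, beside the 22.9% of all protein-coding genes given above. Windows of the listed genes were also longer, with a median of 5157 bp against 4027 bp over all genes. Promoter windows, which have a fixed length, held a summit at 7 of the 22, beside 8.82%. The strongest was at ain-1, on the X chromosome, which encodes a GW182-type protein that links microRNA complexes to CCR4-NOT. It had a signal of 551.7, rank 45, at a summit 712 bp upstream. Next were pab-2, a poly(A)-binding protein gene (signal 356.9, 90 bp upstream), ain-2, the other GW182-type gene (224.4, in an intron) and cgh-1, which encodes a DEAD-box helicase of P granules and P bodies (223.8, 695 bp upstream). The conservative list had no summit at 10 genes. Among them were panl-2, parn-1 and parn-2, known as genes of deadenylases or their partners, and dcap-2, the decapping enzyme gene. Replicate 2's own list did hold a summit at dcap-2. Other listed genes of deadenylation and decapping went the other way. A summit lay 49 bp upstream of panl-3 (signal 197.5) and another in a coding exon of dcap-1 (signal 212.2). Both own lists also had a summit at panl-3 and at dcap-1. xrn-1, which encodes the cytoplasmic 5′-to-3′ exonuclease, had the most summits of the list, 8, in the longest gene of the list. The genes without a summit, as well as panl-3, dcap-1 and xrn-1, were named after their values were seen. ntl-11, a further gene of the complex by name that was on neither list, and was looked up after the other values were seen, had 2 summits, the stronger 109 bp upstream with a signal of 138.4, rank 2693.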

How the data were processed

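ChIP-seq peak lists from 2 replicates of 1 group were used. The authors deposited, per the labels, peaks in build ce11, each with a score of at most 1000 and a signal. The labels name a possible control experiment, which was not analysed here. Aligner and peak caller: not given in the sources used here. In the deposited lists the score follows the irreproducible discovery rate (IDR), whose −log10 the ranked lists also give, and the lowest thresholded score, 830, corresponds to an IDR of 0.01. In 2 ranked lists of the whole series 16 columns name no sample and were not used, nor were those lists.

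Summits were the peak start plus the listed offset. Genes came from Ensembl release 115 and sequence from RefSeq WBcel235. Ranks are by signal among nuclear peaks. Exons are numbered in the protein-coding transcript with the longest span. Members, lists and motifs were chosen with earlier results of these data known. Named were all members, the 4 strongest of the decay list, genes that share a member's summit, and the 2 genes on either side of ntl-2 by promoter signal. In addition panl-2, panl-3, parn-1, parn-2, dcap-1, dcap-2, xrn-1 and ntl-11 were named after their values were seen. No test was made, since there is 1 group and the choice used these signals. Window counts were checked on simulated intervals. Scripts ran in Python 3.11.15 with pandas 2.3.3 and NumPy 2.4.6, and figures were drawn with matplotlib 3.10.9.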

Additional observations from a re-analysis of the deposited data

How the results depend on the processing

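No paired analysis was possible because the 2 replicates form 1 group. With 1 replicate's own list in place of the conservative list, the members with a summit numbered 4 to 6 (of 7, beside 17.5% and 16.6% of all genes), their summits 10 to 13 (against 16), the share of peaks stronger than the ntl-2 promoter summit was 0.210% to 0.319% (against 0.183%) and the mean GC content of member summits 57.7% to 58.2% (against 57.4%). The lower counts are those of replicate 2's list. Promoter windows alone kept 2 members (8.82% of all genes), 2 summits and 7 genes of the decay list (against 12). Promoter windows of all transcripts, chosen after seeing the data, gave 4 members (10.6% of all genes, not matched for transcript number). The stronger 50% of peaks held 10 member summits, at 6 of 7 members and 14.8% of all protein-coding genes. Member entries found in both replicates (9 of 16) numbered 16 with ranked lists in place of thresholded ones, 8 with own summits within 100 bp and 6 with 50% reciprocal overlap, where the shares of all entries were 99.6%, 41.7% and 30.4%. A GC window of 100 bp to either side gave 53.9%. Summits were found at 7 members with the other pooled list (23.2% of all protein-coding genes), 5 with no flank (14.8%), 7 with flanks of 2 kb (28.6%) and 7 with merged regions (22.8%), and numbered 11 to 21. The lists hold no read counts, so the depth limit is unknown, and no control library was analysed here.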
